A study of Mus musculus with 16 samples.

Results

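Loss of Tsc2 was compared with its presence in untreated primary podocytes, the epithelial cells that wrap the glomerular capillaries with interdigitating foot processes. The comparison took the samples titled Tsc2Δpodocyte 01 to 04 and Tsc2flox/flox 01 to 04, which are 8 of the 16 samples of the series. The other 8 came from rapamycin-treated mice and are not described here. All 8 samples were from male Jcl:ICR mice at 4 weeks of age, and all carried the floxed Tsc2 allele. In the Tsc2Δpodocyte mice a Cre transgene under a promoter active in podocytes deleted Tsc2, and the Tsc2flox/flox controls had no Cre. The podocytes were cultures grown out of isolated glomeruli, and the Cre acts only in cells in which that promoter is or was active. Whether each sample of a genotype came from its own mouse is not given in the sources used here, and the p-values therefore cover the spread between cultures as sampled, part or all of which may be technical.

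Tsc2 encodes tuberin, which together with the Tsc1 product hamartin keeps the small GTPase Rheb inactive. Active Rheb switches on the mechanistic target of rapamycin complex known as mTORC1, a kinase that raises protein, lipid and nucleotide synthesis and restrains autophagy and lysosome formation. Podocytes also secrete growth factors and complement proteins, carry receptors for vasoactive peptides and growth factors, and anchor through integrins to the glomerular basement membrane. The genes were therefore grouped by the role of their product, from secreted factors through receptors to transcription factors and effectors.

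The measurement was the fluorescence of 1-colour Agilent arrays, given as a log2 level, that is, log2 of the background-subtracted signal minus the log2 of the same array's 75th percentile. A level of 0 is thus the signal that 75% of the probes did not exceed, and levels of different genes were not set against each other. Of 26606 tested probes, 19916 stood for 13826 genes, and each gene was represented by its brightest probe. A gene was called higher or lower if its adjusted p was under 0.05 (limma, Benjamini-Hochberg) and its fold reached 1.5. By this rule 876 genes (6.34%) were higher and 534 genes (3.86%) were lower in Tsc2Δpodocyte than in Tsc2flox/flox podocytes, and the median log2 difference of all 13826 genes was -0.009. These shares are the background against which the gene classes below are read. The 4 values of one genotype lay outside the range of the other for 3788 genes (27.4%). For such a gene a 2-sided exact permutation test gives p = 0.0286, below which no comparison of 4 with 4 arrays can go.

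Tsc2 itself measured 2.07, 1.99, 2.31 and 1.93 in the Tsc2Δpodocyte samples 1 to 4 and 3.61, 3.40, 2.95 and 3.71 in the Tsc2flox/flox samples 1 to 4. Every deleted sample was below every control, by -1.35 on the log2 scale (standard error 0.21, adjusted p = 0.00088; 2-sided exact permutation test, p = 0.0286). The deleted cultures thus kept some Tsc2 signal. The position of the probe relative to the floxed exons was not determined, so the remaining signal is no measure of undeleted cells.

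The 8 arrays shared 1 slide. Its row 1 held the Tsc2Δpodocyte samples and its row 2 the controls, and an effect of the row cannot be told apart from one of the genotype. The array's 75th percentile was between 348.6 and 447.5 signal units for Tsc2Δpodocyte and between 442.3 and 467.7 for Tsc2flox/flox samples. Tsc2Δpodocyte replicate 2 stood apart: it held the highest of the 4 Tsc2Δpodocyte levels for 511 of the 876 genes called higher and the lowest for 220 of the 534 called lower. Without it 678 genes were higher and 454 lower. All genes given below with their 8 levels stayed called when any 1 of the 8 arrays was left out, and their groups did not overlap except for Col1a1.

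The label was checked against marker genes. Of 17 podocyte markers, 16 were tested and 15 were above background on all 8 arrays, among them Synpo and Wt1, whereas Nphs1, the slit diaphragm protein nephrin, was near background. Their summed linear level was 219 to 364 in Tsc2Δpodocyte and 194 to 246 in Tsc2flox/flox samples, and of these markers only the transcription factor gene Foxc2 was called, lower by 0.77 on the log2 scale. Endothelial markers were also measured on these arrays (summed level 15.4 to 104 against 10.5 to 128, none of 13 called). Of 8 tested fibroblast markers 4 were higher, with a summed level of 124 to 364 against 49.0 to 74.8, while Lum and Dpt were above background on no array. Of 13 mesangial and smooth muscle markers Des, Itga8 and Cnn1 were higher and none lower (771 to 1020 against 667 to 816), and 8 markers of proliferating cells summed to 44.9 to 72.1 against 55.1 to 109, with an adjusted p of at least 0.114 (limma) for each. Of 13 parietal epithelial markers 3 were lower and 1 higher (204 to 304 against 300 to 367), and of 14 macrophage and leukocyte markers Cd68 and Cd14 were higher (14.3 to 21.1 against 10.3 to 19.2). In such bulk cultures fewer cells of a type and less RNA per cell cannot be told apart.

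**Figure D1:**
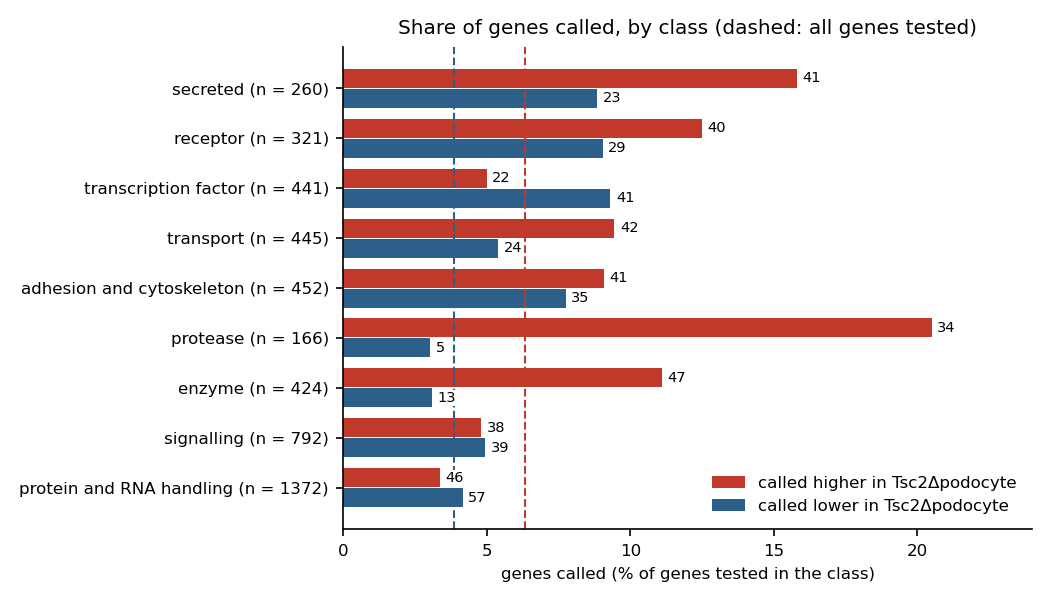
Bars give, in percent, the share of the tested genes of 9 classes called higher (red) and lower (blue) in Tsc2Δpodocyte podocytes, with the number of genes at each bar. The dashed lines mark the shares of all genes, 6.34% higher and 3.86% lower. Proteases (20.5%), secreted factors (15.8%), receptors (12.5%), enzymes (11.1%), transport (9.44%) and adhesion genes (9.07%) lie beyond the red line. Transcription factors (9.30%), receptors (9.03%), secreted factors (8.85%), adhesion (7.74%) and transport genes (5.39%) lie furthest beyond the blue one.

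The counts of a class were lower by the methods' t-test, the 2-sided test of the study's general statistics, as were those of all genes (563 higher and 358 lower). It called 26 higher and 13 lower secreted factors, 24 and 23 receptors, 10 and 29 transcription factors, 21 and 31 adhesion and cytoskeleton genes, 28 and 5 proteases and inhibitors, and 31 and 8 enzymes. By this test 27 of the genes named below lost their call. They were Apcdd1, Vegfb, Scg5, C3, C1s1, Fgfr2, Tyro3, Tlr7, Ednrb, Lrp2, Hoxc8, Sox8, Mitf and Rora. The others were Thrb, Ppargc1b, Itga8, Col1a1, Emilin1, Mmp19, Serping1, Akr1c19, Scd2, Nqo1, Tmem178, Dlk1 and Hmga2. The main filter also tests genes that the arrays of only 1 genotype measured above background. With a probe tested only if all 8 arrays measured it above background, 706 of 13019 genes were higher and 502 lower. Secreted factors then had 32 higher and 23 lower of 237, receptors 31 and 27 of 279, and transcription factors 17 and 41 of 411. Transport genes had 37 and 22 of 402, and adhesion and cytoskeleton genes 33 and 34 of 410. Proteases and inhibitors had 22 and 4 of 138, and enzymes 37 and 12 of 396.

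Among secreted factors, 41 of 260 tested genes were higher (15.8%) and 23 were lower (8.85%), with a median log2 difference of 0.12. Of these calls, 31 and 13 held with any 1 array left out. Adm2, a vasodilator peptide of the calcitonin family, had levels of -1.58, -0.35, -1.85 and -1.66 in Tsc2Δpodocyte and -4.39, -4.10, -3.95 and -4.17 in Tsc2flox/flox samples. It was 6.93-fold higher (log2 difference 2.79, standard error 0.3, adjusted p = 8e-05), and replicate 2 was the highest of the deleted samples. Igfbp6, a binding protein of insulin-like growth factors, measured 1.45, 2.07, 1.62 and 1.73 against -0.30, -0.90, -0.12 and -0.47, a 4.47-fold rise with tight groups. It was 1 of 2 higher genes among 8 IGF ligands and binding proteins, the other being Igfbpl1 (log2 difference 0.64), while Igf1 (0.69, adjusted p = 0.32), Igfbp3 (0.61), Igfbp4 (0.40), Igfbp5 (0.73), Igfbp7 (0.17) and Igfbp2 (-2.0) did not pass. The call of Igfbpl1 was lost without Tsc2Δpodocyte replicate 1, 3 or 4 or Tsc2flox/flox replicate 1 or 3.

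The angiogenic families held 6 higher genes of 18 and none lower. Vegfa, the podocyte growth factor on which glomerular endothelial cells depend, measured 3.76, 4.78, 4.15 and 4.34 against 2.98, 3.21, 3.45 and 3.20 and was 2.06-fold higher (adjusted p = 0.0037). Vegfb (1.81-fold) and Vegfd (2.74-fold), further ligands of the VEGF receptors, were higher too. Further calls included Angpt4 (log2 difference 0.99, adjusted p = 0.038) and the angiopoietin-like Angptl6 (1.01). Vegfc (-0.36), Pgf (-1.02), Pdgfa (0.04), Pdgfb (-1.02), Angpt1 (0.00) and Angpt2 (-0.02) did not pass the test. The VEGF family thus moved in part, with 3 of its 5 ligands called higher by limma. Vegfb lost its call by the methods' t-test. Of the 18 genes, 4 were higher by that test and 4 with normexp.

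Of the FGF ligands none was higher and 3 of 6 were lower. Beside Fgf7, which acts on epithelial cells (6.94-fold lower), these were Fgf18 (log2 difference -0.64) and Fgf23 (-0.62), the hormone of phosphate balance. Without Tsc2Δpodocyte replicate 3 or Tsc2flox/flox replicate 1 or 4, 1 of the 3 was called. Hbegf, a ligand of the EGF receptor, measured 3.63, 3.58, 3.89 and 3.76 in Tsc2Δpodocyte and 5.31, 5.23, 4.77 and 5.23 in control samples, and fell by 1.42 on the log2 scale (adjusted p = 0.00026). It was the only called member of 6 EGF family ligands. Within the TGF-beta family, Bmp2 had levels of -0.55, -0.59, -0.98 and -0.39 against 1.47, 1.25, 0.86 and 1.14 and was 3.49-fold lower. Fstl3, which binds activin, was 1.79-fold higher, and Ltbp4, a latent TGF-beta binding protein of the matrix, was 2.14-fold lower.

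The R-spondins strengthen Wnt signals through LGR receptors. Rspo3 measured -0.01, 0.97, -0.32 and 0.24 in Tsc2Δpodocyte and -2.32, -2.17, -1.09 and -1.65 in Tsc2flox/flox samples and was 4.08-fold higher (adjusted p = 0.00089). Rspo1 was higher as well (adjusted p = 0.00049), with -2.31, -2.27, -3.45 and -3.45 against -4.75, -4.84, -4.62 and -4.80, but only 2 of the 4 control arrays measured it above background. Apcdd1, a membrane inhibitor of Wnt signalling, was 2.72-fold lower. None of 21 Frizzled, LRP5/6, LGR and Notch receptors was called (log2 differences between -0.88 and 0.89), and none of 14 TGF-beta family receptors (-0.56 to 0.67), either by limma or by the methods' t-test. At an unadjusted p under 0.05 in limma these were 7 and 6 genes. With normexp 1 gene in each direction was called in each of the 2 lists, and single arrays left out called up to 2.

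Guidance cues steer axons and vessels, among other routes through plexin and Eph receptors. Counted together with the Notch ligands, they included 4 higher and 7 lower genes of 32, the Notch ligand Jag1 being 1 of the lower ones. Sema3c measured 1.33, 1.98, 1.67 and 1.68 against 0.22, 0.40, 0.31 and -0.28 and was 2.84-fold higher, and Sema5a was 1.62-fold higher. The membrane-anchored semaphorin Sema7a went the other way, with -0.22, 1.23, 0.84 and 0.88 in Tsc2Δpodocyte and 3.29, 2.81, 2.71 and 1.93 in control samples (4.01-fold lower, adjusted p = 0.00052). Efnb1, an ephrin found at the podocyte slit diaphragm, fell by 0.82 on the log2 scale, and Efnb2 was 1.65-fold lower. On the receptor side 2 of 10 Eph receptors were higher and 4 lower. Ephb1 measured -2.41, -2.92, -1.90 and -2.49 against -0.43, 0.09, -0.65 and -0.28 (4.33-fold lower), and Ephb4, the receptor of Efnb2 in vessels, was 3.06-fold lower. Epha4 (-1.71) and Epha2 (-0.67) were the other lower receptors, and Epha6 (1.47) and Ephb3 (0.61) the higher ones. The 4 lower Eph receptors became 2 without replicate 2 of either genotype, and the 2 higher became 0 without Tsc2flox/flox replicate 4 and 1 without Tsc2Δpodocyte replicate 2 or 4 or Tsc2flox/flox replicate 1 or 2. The plexin Plxna4 was 4.17-fold higher.

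Of 21 chemokines 4 were higher and none lower, but only Ccl7 and Ccl12 stayed called with any 1 array left out: the 4 became 2 without Tsc2Δpodocyte replicate 1, 2 or 4 or Tsc2flox/flox replicate 2, 3 or 4. Ccl7, which attracts monocytes, measured 1.31, 1.47, 0.65 and 0.98 in Tsc2Δpodocyte and -0.50, -1.03, -0.22 and -1.31 in control samples, a 3.65-fold difference (adjusted p = 0.00038). Ccl12, a further monocyte chemokine, was above background on all 4 Tsc2Δpodocyte arrays and on no control array, and was at least 6.23-fold higher (adjusted p = 0.00047). Here the bound counts a dim array at the lowest signal among its probes above background, or at the probe's own signal if that was higher. Among cytokines, Il18 measured -0.72, -0.44, -0.11 and -0.68 against -2.20, -2.38, -1.41 and -2.74 (3.24-fold higher), and the TNF family ligand Tnfsf9 was 2.22-fold higher. Tslp, an epithelial cytokine that acts on dendritic cells, measured -2.63, -3.53, -2.83 and -3.25 against -0.39, -0.79, -1.65 and -0.85 and was 4.42-fold lower. Clcf1, of the IL-6 family, was 1.86-fold lower.

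Of 19 complement and coagulation genes 5 were higher and none lower, with a median log2 difference of 0.71. With each of the 8 arrays above background the list had 3 higher of 16. By the methods' t-test it had 1, with C3 and C1s1 among the genes that lost their calls. The central complement component C3 measured 1.28, 2.49, 0.20 and 0.42 against -1.33, -1.76, -0.67 and -1.06 and was 4.93-fold higher (adjusted p = 0.0013). C2 (5.29-fold), part of the classical convertase, was higher. Serping1 (4.05-fold), the inhibitor of the C1 proteases, was higher too, but it was counted in the serpin list and lost its call by the methods' t-test. The protease C1s1 was higher with 3 of 4 control arrays above background, and so was the haemoglobin-binding plasma protein Hp (5.4-fold). Replicate 2 held the highest Tsc2Δpodocyte value of C3, C2 and C1s1, and replicate 1 that of Hp. Of 30 MHC and antigen presentation genes 5 were higher, among them H2-Ab1, a class II chain (0.66, 2.44, 1.30 and 0.97 against -0.94, -1.28, -0.62 and -1.15), and H2-DMb1 (2.13-fold), which loads class II molecules. Interferon-induced genes had a median of 0.56 with 4 of 43 higher (9.30%, against 6.34% of all genes). Among these were Ifi204 (1.74-fold) and Isg20 (1.91-fold), and Irgm1 was 1.85-fold lower. The macrophage markers Cd68 and Cd14 were also higher in the same samples, and the other 12 of the 14 tested were not called. Their part in these results was not tested. The MHC count ranged from 2 (without replicate 2 of either genotype) through 3 (without replicate 1 of either genotype or Tsc2flox/flox replicate 4) to 9 (without Tsc2flox/flox replicate 3). The interferon count ranged from 2 (without Tsc2Δpodocyte replicate 2 or Tsc2flox/flox replicate 4) to 9 (without Tsc2Δpodocyte replicate 3).

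**Figure D2:**
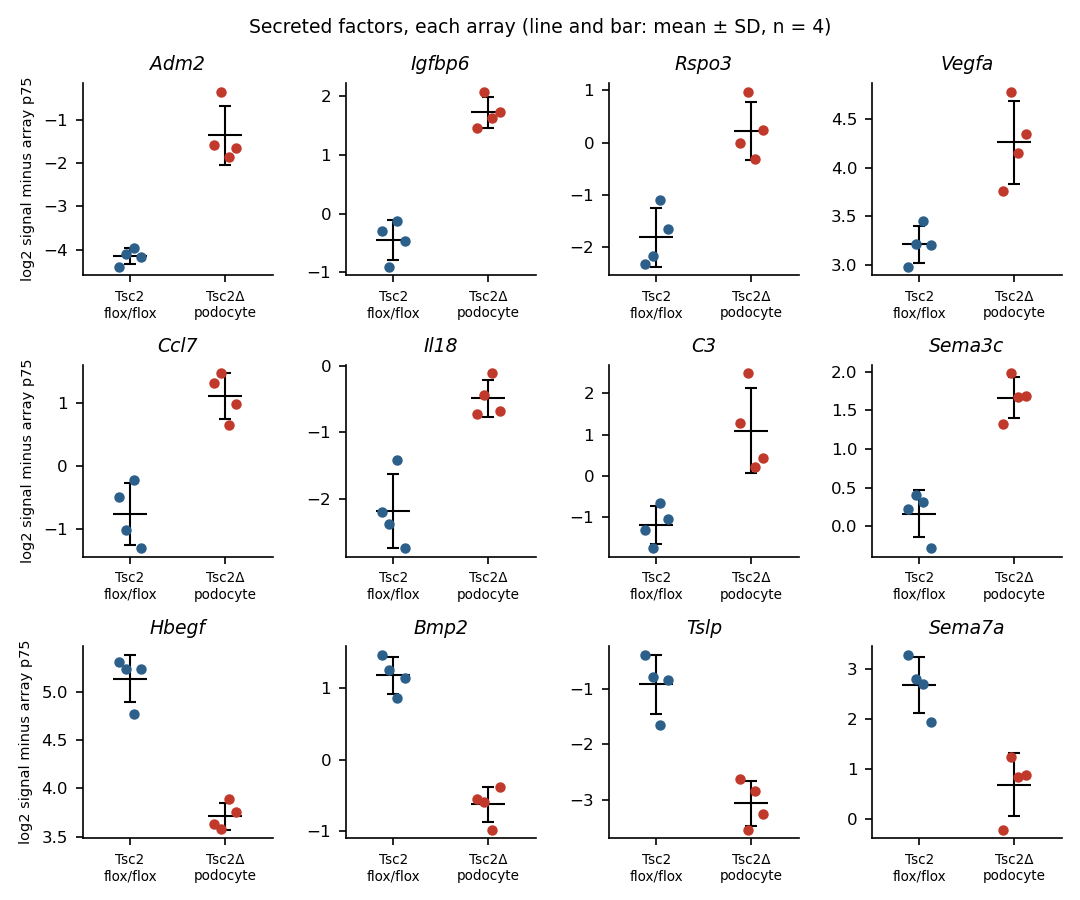
Log2 level of 12 secreted or membrane-bound ligands on each array (points), with the mean and SD of the 4 samples of a genotype. Adm2, Igfbp6, Rspo3, Vegfa, Ccl7, Il18, C3 and Sema3c were higher and Hbegf, Bmp2, Tslp and Sema7a lower in every Tsc2Δpodocyte sample than in every Tsc2flox/flox sample.

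Further secreted products differed singly. Artn, a neurotrophic ligand of the GDNF family, measured -0.31, -0.07, 0.08 and -0.35 against -2.38, -2.22, -0.98 and -1.58 (3.09-fold higher). Insl6, an insulin-like peptide, was 2.67-fold higher, and Scg5, a chaperone of prohormone convertase, was 3.32-fold higher. The growth factor Ptn was 3.9-fold higher on its brightest probe, and its other tested probe was not called. Ccn3, a matricellular protein, was higher with 3 of 4 control arrays above background. Npy, neuropeptide Y, fell by 1.82 on the log2 scale, with -2.30, -2.42, -1.53 and -1.34 in Tsc2Δpodocyte and -0.10, -0.24, -0.03 and 0.05 in control samples. Its receptor Npy2r was above background on all 4 control arrays and on no Tsc2Δpodocyte array, and was at least 2.59-fold lower. Ligand and receptor genes of this peptide were thus both lower.

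Among receptors, 40 of 321 tested genes were higher (12.5%) and 29 lower (9.03%), with a median log2 difference of -0.02, and 26 and 17 of the calls held with any 1 array left out. The EGF receptor family held lower genes: Egfr measured 3.94, 4.05, 4.22 and 4.34 in Tsc2Δpodocyte and 4.72, 4.76, 5.09 and 5.04 in control samples (1.7-fold, adjusted p = 0.0017). Erbb2, its partner without a ligand of its own, measured 0.63, 0.57, 0.67 and 0.35 against 1.51, 1.39, 1.16 and 1.47 (1.78-fold lower). Together with Hbegf, a ligand and these receptors were lower in each deleted sample than in each control. In contrast, Tyro3, a receptor of Gas6 and protein S, was 1.72-fold higher and Fgfr2, which binds Fgf7 in its epithelial form, 1.75-fold higher.

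Ghr, the growth hormone receptor, measured 1.62, 1.56, 1.78 and 1.45 against 3.19, 2.43, 2.33 and 2.88 and was 2.15-fold lower (adjusted p = 0.00078). Socs2, an inhibitor of growth hormone signalling that the hormone induces, measured -0.05, -0.65, 0.28 and -0.20 against 2.04, 1.93, 1.65 and 1.64 and fell by 1.97 on the log2 scale (adjusted p = 3.5e-05). The insulin and IGF adaptors Irs1 (2.38-fold) and Irs2 (1.76-fold) were lower as well. Their list of insulin and growth factor signalling genes had 3 lower (5.26%) and 1 higher (1.75%) of 57. The shares of all genes were 3.86% and 6.34%. Ghr, Socs2, Irs1 and Irs2 were each lower on all 4 Tsc2Δpodocyte arrays than on any control array. Groups without overlap, in either direction, were found for 27.4% of all genes.

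Cytokine receptors included Il4ra, the chain shared by interleukins 4 and 13, with 3.05, 3.54, 2.49 and 2.58 in Tsc2Δpodocyte and 1.72, 1.69, 1.65 and 1.77 in control samples. The control values lay close together, and the difference was 2.31-fold (adjusted p = 0.00052). Il6ra (2.04-fold) and Il1rap (1.6-fold), receptor chains of interleukins 6 and 1, were higher. In the TNF receptor superfamily Tnfrsf1b (2.29-fold) and Tnfrsf19 (2.29-fold) were higher, and Tnfrsf18 was lower with 2 of 4 Tsc2Δpodocyte arrays above background. Tlr7, a sensor of single-stranded RNA, was 1.86-fold higher. The scavenging chemokine receptor Ackr3 fell by 1.42 on the log2 scale. With normexp background correction, which shrinks the differences of dim probes, Fgfr2, Tnfrsf19, Tnfrsf18, Ednrb and Npy2r were no longer called.

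G protein-coupled receptors moved in both directions. Lpar1, a receptor of lysophosphatidic acid, measured -1.82, -1.30, -1.02 and -1.72 against -3.0, -3.23, -2.65 and -3.36 (3.02-fold higher, adjusted p = 0.00018). Ptger2, a prostaglandin E2 receptor coupled to cyclic AMP, measured -1.65, -1.69, -2.02 and -2.14 against -4.88, -4.37, -4.22 and -4.54, with 2 of 4 control arrays above background (adjusted p = 3.5e-05). Of the vasoactive peptide receptors, the vasopressin receptor Avpr1a measured 0.48, 1.17, 0.65 and 0.99 against -1.59, -0.22, -0.97 and -0.23 (2.98-fold higher). The endothelin receptor Ednrb was at least 2.05-fold higher and the succinate receptor Sucnr1 at least 2.09-fold higher, neither above background on a control array. F2rl2, of the protease-activated receptors, measured 1.69, 1.43, 1.77 and 1.89 against -1.10, 0.36, 0.52 and -0.18 (3.46-fold higher). The orphan receptor Mrgprf measured 2.07, 2.60, 1.57 and 1.79 against -1.65, 0.20, -0.14 and -0.84 (6.15-fold higher), and the pigment cell receptor Gpr143 was higher with 1 control array above background.

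Lower G protein-coupled receptors included Gper1, a membrane receptor of oestrogen, with -1.59, -2.62, -1.79 and -2.20 in Tsc2Δpodocyte and 0.14, 0.46, 0.02 and 0.25 in control samples (4.83-fold). The bile acid receptor Gpbar1 (3.19-fold) and the sphingosine 1-phosphate receptor S1pr3 (2.47-fold) were lower. Of 49 orphan and adhesion receptors 7 were lower, or 4 without Tsc2flox/flox replicate 4, and 3 higher. Celsr2, a cadherin-like receptor of planar cell polarity, measured -3.18, -3.0, -3.08 and -3.64 against -1.66, -1.76, -1.96 and -1.36 (2.91-fold lower). The adhesion receptors Adgrb2 (5.79-fold) and Adgrl1 (2-fold) were lower too.

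Endocytic and sorting receptors split. Scarb2, which carries glucocerebrosidase to lysosomes, measured 2.70, 3.08, 2.62 and 2.87 against 1.84, 1.88, 2.06 and 1.91 (1.85-fold higher, adjusted p = 0.00043). The sorting receptor Sort1 was 1.65-fold higher. Sorcs2, a relative of Sort1, measured 1.78, 2.45, 1.49 and 1.61 against 3.12, 3.71, 3.68 and 3.58 (3.23-fold lower). Lrp2, the endocytic receptor megalin, was 2.96-fold lower. Lrp2 is also a marker of proximal tubule, whose 5 tested markers summed to 2.81 to 11.6 against 5.59 to 13.2, and the part of tubule cells in its value was not tested.

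**Figure D3:**
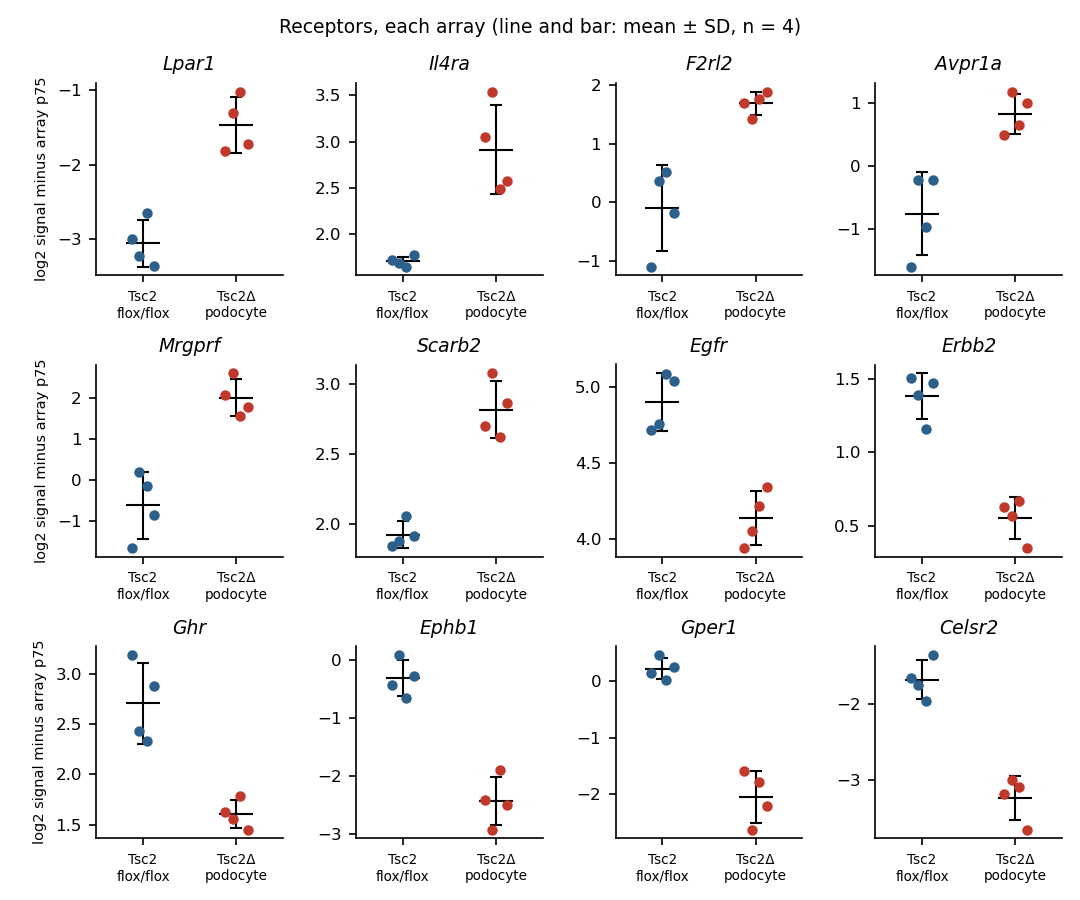
Log2 level of 12 receptors on each array (points), with the mean and SD of the 4 samples of a genotype. Lpar1, Il4ra, F2rl2, Avpr1a, Mrgprf and Scarb2 were higher and Egfr, Erbb2, Ghr, Ephb1, Gper1 and Celsr2 lower in every Tsc2Δpodocyte sample than in every Tsc2flox/flox sample.

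Transcription factors had the opposite balance, with 22 of 441 tested genes higher (4.99%) and 41 lower (9.30%), a median log2 difference of -0.13. Of these 13 and 23 held with any 1 array left out. Of 23 CREB, ATF and C/EBP factors 2 were higher (8.70%, against 6.34% of all genes) and none lower. Cebpb, a factor of inflammatory and stress responses, measured 4.08, 4.37, 3.90 and 4.11 in Tsc2Δpodocyte and 2.95, 3.55, 3.39 and 3.25 in control samples (1.78-fold, adjusted p = 0.00051). Ddit3, also called CHOP, measured 3.1, 3.8, 2.86 and 3.33 against 2.12, 1.16, 1.83 and 1.77 (2.93-fold), and Trib3, which it induces, was 2.34-fold higher. Bcl3, a nuclear partner of NF-kB, measured 4.26, 4.57, 3.73 and 4.07 against 2.29, 3.03, 3.05 and 2.87 (2.54-fold). Mitf, of the MiT factors that drive lysosomal genes, measured 1.36, 2.06, 0.98 and 1.37 against 0.61, 0.47, 0.78 and 0.53 (1.79-fold, adjusted p = 0.0073). It was not called by the methods' t-test. Among the 16 MYC network and MiT factors 1 was higher and 2 were lower.

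The homeobox gene Msx2, a target of BMP signals, measured 1.47, 1.95, 2.49 and 2.32 against 1.08, -0.42, 0.68 and 0.16 (3.21-fold higher). Of 31 HOX genes Hoxa11 (1.91-fold) and Hoxc8 (1.79-fold) were higher, and Hoxb5 (log2 difference -1.06), Hoxb7 (-0.60) and Hoxb9 (-1.04) lower, with a median of -0.12. These were 6.45% higher and 9.68% lower, against 6.34% and 3.86% of all genes. The 3 lower calls became 0 without Tsc2flox/flox replicate 1 and 1 without replicate 2 or 4 of either genotype or Tsc2Δpodocyte replicate 1. Outside the HOX clusters Prrx2 was 3.07-fold lower. Of 35 nuclear receptors and coactivators 6 were higher, or 3 without Tsc2Δpodocyte replicate 2 and 0 by the methods' t-test, and 2 lower. Rora, an orphan receptor of the ROR group, measured 2.41, 3.47, 2.16 and 2.37 against 1.70, 1.20, 1.48 and 1.5 (2.19-fold higher), the coactivator Ppargc1b was 1.84-fold higher, and the thyroid hormone receptor Thrb was higher with 2 of 4 control arrays above background. The immediate early genes Nr4a1 (0.52, 0.78, 1.14 and 1.08 against 2.68, 2.48, 1.54 and 1.88) and Nr4a2 (2.04-fold) were lower. None of 24 bHLH-PAS and clock factors (log2 differences -1.04 to 0.58) and none of 20 E2F, p53 and Rb family genes (-0.84 to 0.38) was called by limma or by the methods' t-test, against 5 and 4 genes at an unadjusted p under 0.05. Leaving out single arrays made at most 2 clock factors higher.

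Among the lower factors, Pax8, which the kidney epithelium and parietal cells express, measured -0.11, 0.24, -0.25 and -0.49 in Tsc2Δpodocyte and 1.41, 1.35, 1.19 and 1.32 in control samples (2.78-fold, adjusted p = 0.00047). Sox11 measured 0.55, -0.02, 0.31 and -0.15 against 2.21, 2.57, 2.23 and 2.30 (4.46-fold lower), and with Sox8 (3.71-fold) it belonged to the 3 lower of 13 SOX genes, of which none was higher. Of 28 bHLH and ID factors 7 were lower and 1 higher, but the 7 became 4 without Tsc2Δpodocyte replicate 4 or without Tsc2flox/flox replicate 1. Id4, an inhibitor of bHLH factors, measured -4.03, -4.03, -4.35 and -3.8 against -1.42, -2.38, -2.21 and -1.95 (4.18-fold lower, adjusted p = 0.00011), and the bHLH partner Tcf3 was 1.71-fold lower. Tead2, which binds YAP, measured 2.88, 2.57, 2.69 and 2.41 against 3.89, 4.11, 3.75 and 4.15 (2.54-fold lower). The ETS factors Etv1 (-1.21, -0.96, -1.65 and -1.61 against -0.32, -0.39, -0.30 and -0.13) and Etv4 (1.86-fold), targets of FGF and MAP kinase signals, were lower, and no ETS factor of 17 was higher.

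Mef2a (1.7-fold), Glis3 (1.96-fold), Foxl1 (3.16-fold) and, on 1 of 3 tested probes each, Skil (1.6-fold) and Tcf7l2 (1.57-fold) were also lower. Gli1, the effector of hedgehog signals, was higher with 2 of 4 control arrays above background. Gli1 lost its call with normexp. Bach2, a repressor related to Bach1, measured -3.70, -3.67, -3.83 and -3.93 against -2.61, -2.61, -2.59 and -2.31 (2.38-fold lower, adjusted p = 6.5e-05; not called with normexp). Bach1 (log2 difference -0.43) and Nfe2l2, which it competes with (0.33), were not called. Among 397 zinc finger genes named Zfp, most of them KRAB repressors or of unknown function, 38 were lower (9.57%) and 4 higher (1.01%), with a median of -0.19. The lower ones that held with any 1 array left out numbered 19, among them Zfp618 (0.83, 0.95, 0.80 and 0.53 against 2.02, 2.52, 2.14 and 2.50), Zfp90 (1.73-fold) and Zfp286 (1.81-fold), whereas no higher one held. The 4 higher became 1 without Tsc2Δpodocyte replicate 2 or Tsc2flox/flox replicate 1 or 4, and 2 without Tsc2Δpodocyte replicate 4. With normexp 14 were lower.

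**Figure D4:**
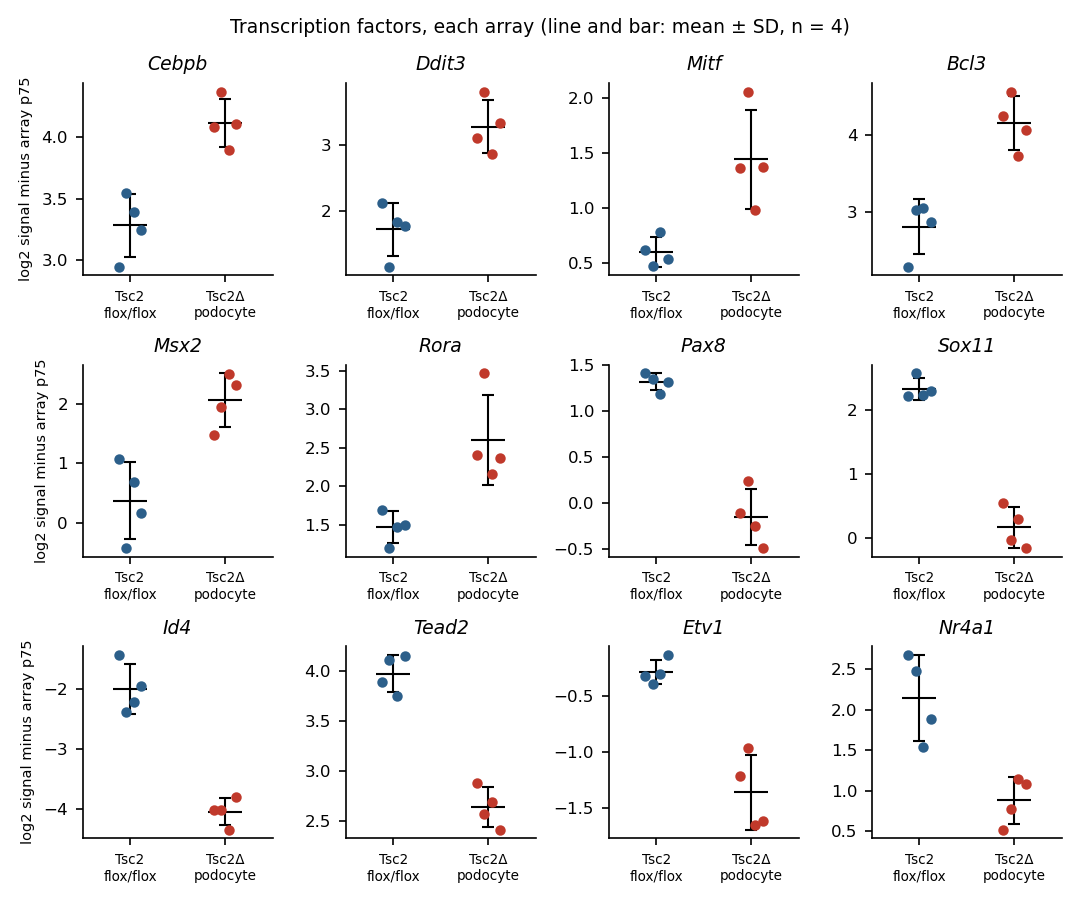
Log2 level of 12 transcription factors on each array (points), with the mean and SD of the 4 samples of a genotype. Cebpb, Ddit3, Mitf, Bcl3, Msx2 and Rora were higher and Pax8, Sox11, Id4, Tead2, Etv1 and Nr4a1 lower in every Tsc2Δpodocyte sample than in every Tsc2flox/flox sample.

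Transporters and channels held 42 higher (9.44%) and 24 lower genes (5.39%) of 445, or 15 lower with normexp. Amino acid transporters included 6 higher and 1 lower of 35. Slc6a12, which takes up betaine and GABA, measured -1.93, 0.18, -1.23 and -1.14 against -4.35, -4.55, -5.37 and -4.71, with 2 of 4 control arrays above background (adjusted p = 0.0003). The cystine importer Slc7a11 measured -1.21, -1.66, -0.02 and -0.33 against -3.65, -3.35, -3.12 and -3.55 (6.12-fold higher), and the creatine transporter Slc6a8 was 1.95-fold higher. The glucose transporters Slc2a1 (2.11-fold) and Slc2a3 (-2.07, -1.92, -2.12 and -2.07 against -3.18, -3.16, -3.33 and -3.09) were higher, as was the lactate exporter Slc16a3 (5.33, 5.96, 5.04 and 5.19 against 3.07, 4.23, 3.48 and 3.76). Slc2a3 had narrow groups and Slc16a3 its highest value in Tsc2Δpodocyte replicate 2. The fatty acid transporter Slc27a6 was higher with 1 control array above background, and the ABC transporter Abca8b was 4.91-fold higher.

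Of 29 metal transporters 4 were higher and none lower. Slc39a8 carries zinc and manganese into cells and measured -1.20, -1.05, -0.88 and -0.70 against -1.82, -2.19, -1.58 and -2.17 (1.98-fold). The mitochondrial carriers Slc25a37 for iron (1.8-fold) and Slc25a33 for pyrimidine nucleotides (1.69-fold) were higher. Mcoln2, a cation channel of endosomes and lysosomes, measured -1.35, -1.91, -1.87 and -1.58 against -3.8, -3.78, -3.73 and -4.19, with 3 of 4 control arrays above background (adjusted p = 4.1e-06). The ATP-gated channel P2rx4, also of lysosomes, measured 3.63, 3.95, 3.83 and 3.83 against 2.50, 2.85, 2.86 and 2.89 (2.05-fold). The acid-sensing channel Asic3 measured 4.75, 5.57, 4.57 and 4.99 against 2.58, 1.80, 3.0 and 2.84 (5.33-fold higher) and Gabra4 was 2.72-fold higher. Kcnk12, a potassium leak channel (-0.92, -1.19, -1.54 and -1.0 against 0.84, 1.19, 1.21 and 0.78), and the connexin Gjc1 (2.43-fold) were lower.

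Adhesion and cytoskeleton genes were called in both directions, with 41 higher (9.07%) and 35 lower (7.74%) of 452. Itga3, the integrin chain that binds podocytes to laminin, measured 1.81, 1.34, 2.25 and 1.94 in Tsc2Δpodocyte and 3.01, 3.59, 3.24 and 3.0 in control samples (2.59-fold lower, adjusted p = 0.0019). Itgb3, of the vitronectin receptor, was 2.24-fold lower, and Itga8, also a mesangial marker, 2.68-fold higher. Among cadherins, Pcdh19 measured 1.65, 1.22, 1.71 and 1.70 against 3.24, 3.17, 3.23 and 3.28 (3.15-fold lower), and Cdh6 (3.11-fold) and Cdh2 (1.65-fold) were lower. Cdh6 and Pax8 are also parietal epithelial markers, and the part of parietal cells in their values was not tested. The adhesion protein Cadm1 (2.42-fold) and the proteoglycan Gpc2 (2.2-fold) were lower, and Sdc3 (1.71-fold) and the elastic fibre protein Emilin1 (1.8-fold) higher.

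Of 25 collagens 4 were higher and 2 lower. Col1a2 measured 8.17, 8.13, 6.36 and 7.25 against 5.59, 4.65, 5.01 and 5.04 (5.29-fold higher, adjusted p = 0.0003). For Col1a1, the other chain of collagen I, the values 6.15, 5.97, 5.27 and 5.75 and 4.20, 4.40, 5.31 and 4.29 overlapped at control replicate 3 (2.35-fold, adjusted p = 0.01). The fibril-associated Col14a1 was at least 2.31-fold higher, above background on no control array and not called with normexp, and Col6a1 fell by 1.64 on the log2 scale. Col1a1, Col1a2 and Col3a1 are also fibroblast markers and make up most of the summed level of that list. Of its other tested members Pdgfra was higher (log2 difference 0.73), and Dcn (0.60), Pi16 (0.49), Postn (-0.20) and Thy1 (-1.68) were not called. The part of such cells was not tested. Des, the intermediate filament desmin of injured podocytes and of mesangial cells, measured 3.67, 2.90, 2.77 and 3.54 against 1.17, 1.57, 1.82 and 1.27 (3.39-fold higher), and the part of mesangial cells in the values of Des and Itga8 was not tested. The motor Kif5c (3.44-fold) and the actin-capping Tmod2 (2.35-fold) were lower, and Tuba4a (2.57-fold) and the microtubule protein Map1a (2.53-fold) higher.

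Proteases and their inhibitors had a larger share of higher genes than the other classes, 34 of 166 (20.5%), with 5 lower (3.01%) and a median log2 difference of 0.22. The 5 lower became 3 without Tsc2Δpodocyte replicate 4 or without Tsc2flox/flox replicate 1. Restricted to probes above background on all 8 arrays, 22 of 138 were higher and 4 lower. Lysosomal proteases were among them: Ctsb, cathepsin B, measured 7.16, 7.38, 6.81 and 7.01 against 6.01, 5.96, 6.15 and 6.02 (2.08-fold, adjusted p = 9.3e-05), and legumain, Lgmn, 5.20, 5.38, 5.08 and 4.98 against 4.36, 4.08, 4.40 and 4.18 (1.88-fold). Cst6, which inhibits legumain, was 2.35-fold higher. Of 22 cathepsins, legumain and cystatins 5 were higher and none lower. Of 185 RAB and membrane traffic genes 12 were higher (6.49%) and 2 lower (1.08%), against 6.34% and 3.86% of all genes. The share of higher genes was thus close to the background. The 12 became 6 without Tsc2Δpodocyte replicate 2 or Tsc2flox/flox replicate 4 and 7 without Tsc2flox/flox replicate 2. Rab7b, of late endosomes and lysosomes, was 2.49-fold higher.

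Matrix-degrading enzymes included the collagenases Mmp13 (-1.31, -0.99, -1.38 and -1.17 against -3.1, -3.79, -3.90 and -4.54) and Mmp8, each with 3 of 4 control arrays above background, and Mmp19 (3.16-fold higher). Htra1, a secreted serine protease, measured 7.53, 7.60, 7.46 and 7.52 against 6.0, 6.15, 6.69 and 6.07 (2.46-fold higher, adjusted p = 0.00027). Prss46 measured 1.44, 2.03, 1.15 and 1.43 against -0.13, -0.19, -0.09 and 0.13 (2.99-fold), and Pappa, which cleaves IGF binding proteins, was 2.27-fold higher. Adamts9 was 2.05-fold lower. Of 45 serpins and other protease inhibitors 12 were higher and 2 lower. Slpi, which inhibits leukocyte elastase, measured 0.06, 0.69, 2.27 and 1.5 against -3.96, -1.94, -1.61 and -2.89 (13.3-fold higher, adjusted p = 0.0013), with its other tested probe not called.

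Of the 12 higher genes 9 were intracellular serpins of clade B. Serpinb1b, Serpinb1c, Serpinb9c, Serpinb9d and Serpinb9g among them were tested only because the Tsc2Δpodocyte arrays measured them above background, so their calls are no support for a shift of the group. With each of the 8 arrays above background 6 of 33 genes of the list were higher. Serpinb1a, an inhibitor of neutrophil proteases, measured -0.16, 0.67, 0.11 and 0.32 against -1.76, -2.26, -1.12 and -1.54 (3.75-fold). Its close relatives Serpinb1b and Serpinb1c were higher with 1 control array above background each. Of the Serpinb9 group, Serpinb9e measured -0.95, -0.43, -0.05 and -0.02 against -3.51, -4.35, -2.38 and -2.34 (6.88-fold), Serpinb9f was 5.77-fold higher and Serpinb9d at least 4.23-fold. Serpinb8 was also called (log2 difference 0.64). Serpinb9c and Serpinb9g were higher with 2 control arrays above background each. Serpinb9 itself (log2 difference 0.65, adjusted p = 0.06), Serpinb2 (1.02) and the 5 tested Serpinb6 genes (Serpinb6a 0.21, Serpinb6b 0.35, Serpinb6c 0.24, Serpinb6d 0.44 and Serpinb6e 0.32) were not called. The Serpinb1 and Serpinb9 groups hold close copies of each other in the mouse, so their probes may share signal and the calls are not separate measurements.

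**Figure D5:**
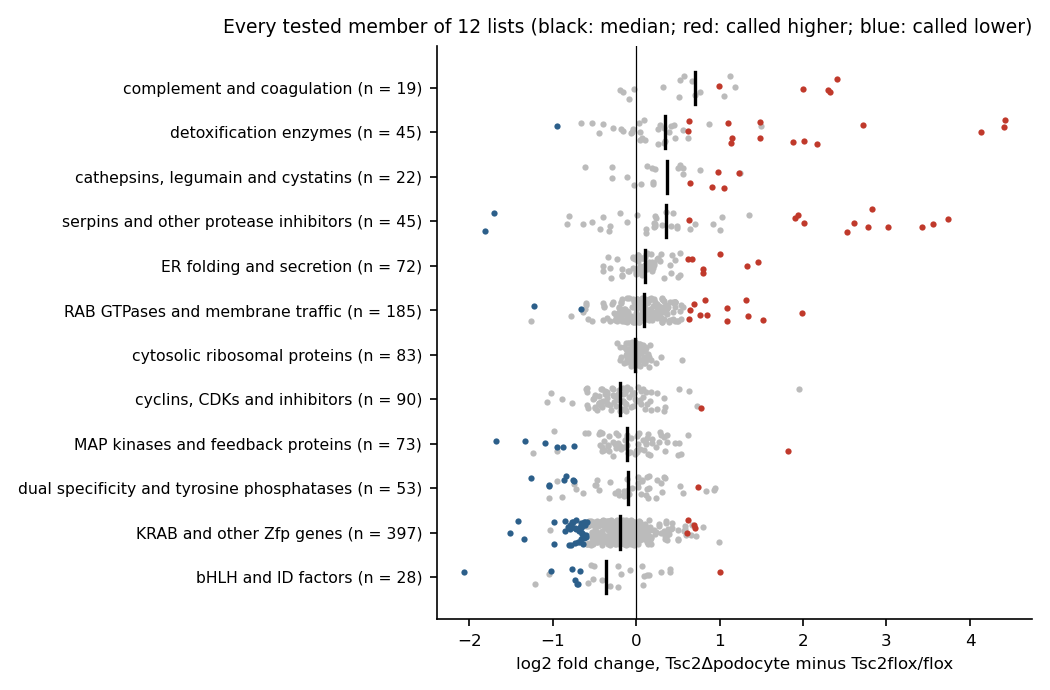
Points give the log2 difference (Tsc2Δpodocyte minus Tsc2flox/flox) of each tested gene in 12 gene lists, red if called higher and blue if called lower, with the median of the list in black. The medians of the complement (0.71), cathepsin (0.37), serpin (0.35) and detoxification lists (0.35) lie furthest to the right. Those of the bHLH (-0.36), cyclin (-0.20) and Zfp lists (-0.19) lie furthest to the left. The 83 cytosolic ribosomal protein genes lie close to 0 with none called.

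Enzymes included 47 higher (11.1%) and 13 lower genes (3.07%) of 424. Detoxification enzymes, a list of transferases that attach glutathione, glucuronate or sulphate and of oxidases, reductases and hydrolases of foreign compounds, held 14 higher and 1 lower of 45. The lower gene was the epoxide hydrolase Ephx2 (log2 difference -0.94), while Ephx1 (0.64) and the oxidase Aox1 (1.15) were higher. Beside the glutathione transferases, some of them near-identical copies, the 14 included Ugt1a6b (1.16, 1.53, 1.80 and 1.66 against -0.01, -0.83, -0.96 and -0.74), a glucuronosyltransferase that shares most of its transcript with the other Ugt1a genes. Also among the 14, the quinone reductase Nqo1 measured 1.46, 1.17, 3.15 and 2.66 against -0.19, -1.86, 0.26 and -0.62 (6.56-fold; not called by the methods' t-test) and the lactonase Pon3 2.95, 3.1, 3.24 and 3.22 against 1.81, 1.97, 2.34 and 2.0 (2.14-fold). Of 63 aldehyde, alcohol and aldo-keto dehydrogenases 6 were higher (9.52%) and 3 lower (4.76%), against 6.34% and 3.86% of all genes. Akr1c18, which inactivates progesterone, measured 1.38, 2.49, 2.23 and 2.67 against -0.80, -0.36, -0.08 and -0.73 (6.42-fold higher). Its relative Akr1c19 went the other way, with 1.53, -2.71, -1.84 and -1.81 against 2.93, 1.79, 2.33 and 2.01, a log2 difference of -3.47 that became -4.38 without Tsc2Δpodocyte replicate 1 and was not called by the methods' t-test. Aldh1a3, which makes retinoic acid, measured -1.73, -2.62, -3.04 and -3.43 against 0.25, -0.09, 0.42 and 1.01 (8.59-fold lower), and Rdh10, of the preceding step, was lower by 1.02 on the log2 scale, a call lost when single arrays were left out.

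RefSeq start-site windows (250 bases before to 50 after the start, build GRCm38.p6) were searched on both strands for TGACNNNGC, the core of the antioxidant response element, and CACGTG, the E-box core that MiT factors bind. Windows of a single chromosome were left out of the search, so genes there count as having no window. The first occurs in 14.0% and the second in 8.09% of the 27025 genes with a window. TGACNNNGC was in 3 of 11 higher and 2 of 25 uncalled detoxification enzymes with a window, and CACGTG in 2 of 3 higher and 4 of 13 uncalled genes of the cathepsin list. In that list TGACNNNGC was in 0 of 3 higher and 3 of 13 uncalled genes. Of the metal transporters, which include Mcoln2, CACGTG was in 2 of 4 higher and 4 of 20 uncalled genes. TGACNNNGC was in 2 of 4 and 6 of 20 of them. A match is a description of the letters and not a binding site. The windows of 2 higher transferases and 2 higher lysosomal genes are shown, 5′ to 3′ on the gene's strand, because they hold a match; capitals mark it. They are Gsta3 (chr1:21240335-21240634, plus strand), Mgst1 (chr6:138140277-138140576, plus strand), Lgmn (chr12:102439043-102439342, minus strand) and Mcoln2 (chr3:146149924-146150223, plus strand).
Gsta3: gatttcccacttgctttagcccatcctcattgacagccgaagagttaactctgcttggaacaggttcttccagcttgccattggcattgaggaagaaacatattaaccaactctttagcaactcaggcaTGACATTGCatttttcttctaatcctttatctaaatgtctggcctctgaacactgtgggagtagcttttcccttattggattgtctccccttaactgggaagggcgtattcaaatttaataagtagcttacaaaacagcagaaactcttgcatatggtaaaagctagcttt
Mgst1: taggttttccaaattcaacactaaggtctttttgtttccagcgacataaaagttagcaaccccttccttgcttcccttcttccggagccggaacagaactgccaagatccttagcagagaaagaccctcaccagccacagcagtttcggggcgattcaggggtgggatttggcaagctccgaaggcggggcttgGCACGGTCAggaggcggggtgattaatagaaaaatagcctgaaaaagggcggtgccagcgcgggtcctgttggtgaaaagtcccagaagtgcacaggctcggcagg
Lgmn: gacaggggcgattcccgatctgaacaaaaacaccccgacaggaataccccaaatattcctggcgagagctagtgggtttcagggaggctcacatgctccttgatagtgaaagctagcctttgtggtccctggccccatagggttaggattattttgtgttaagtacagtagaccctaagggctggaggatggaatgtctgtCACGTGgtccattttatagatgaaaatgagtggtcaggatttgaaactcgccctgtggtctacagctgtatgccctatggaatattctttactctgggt
Mcoln2: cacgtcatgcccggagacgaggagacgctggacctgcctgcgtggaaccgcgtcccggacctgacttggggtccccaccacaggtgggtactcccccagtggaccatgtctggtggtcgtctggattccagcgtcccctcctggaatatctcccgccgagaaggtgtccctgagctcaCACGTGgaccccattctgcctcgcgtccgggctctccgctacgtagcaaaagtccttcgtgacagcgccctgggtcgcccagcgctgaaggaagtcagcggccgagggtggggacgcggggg
Over all genes called higher with a window, 18.2% held TGACNNNGC, against 16.7% of all tested genes with a window. CACGTG was in 71 of these 665 higher genes and in 1248 of 10983 tested genes.

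Lipid enzymes held 13 higher and 2 lower genes of 101. Scd2, which desaturates fatty acids, measured 5.63, 6.42, 5.14 and 5.50 against 3.89, 4.85, 4.61 and 4.45 (2.33-fold), and the acyl-CoA thioesterase Acot13 was 1.78-fold higher. The secreted phospholipase Pla2g2e was above background on no control array and at least 6.47-fold higher. Nucleotide and one-carbon enzymes held 9 higher and 1 lower of 70. The mitochondrial Ak4, which passes phosphate between nucleotides, measured 3.11, 4.29, 3.25 and 3.24 against 0.73, 1.23, 0.39 and 0.70 (6.54-fold higher, adjusted p = 0.00011). Aldh1l2, of mitochondrial folate metabolism (2.53-fold), and Adssl1, of AMP synthesis (1.77-fold), were higher. Of the sphingolipid and glycan enzymes 3 were higher (2.80%) and 5 lower (4.67%). The polysialyltransferase St8sia2 (-2.10, -1.97, -2.45 and -2.73 against -0.28, 0.17, -0.64 and 0.26) and the heparan sulphatase Sulf2 (1.67-fold), which podocytes secrete, were lower. Sulf1, the other heparan sulphatase, was higher (log2 difference 0.83), with Mgat5 (0.72) and Galnt6 (1.44), but the 3 higher calls became 1 without replicate 1 or 2 of either genotype and 0 without replicate 4 of either and by the methods' t-test.

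Signalling proteins were balanced, with 38 higher (4.80%) and 39 lower (4.92%) of 792. Of 73 MAP kinase and feedback genes 6 were lower (8.22%), and of 53 dual specificity and tyrosine phosphatases 7 (13.2%), with 1 higher in each list. The share of all genes that were lower was 3.86%. Spry1, a feedback inhibitor of FGF signalling, measured 1.74, 1.56, 1.76 and 1.48 in Tsc2Δpodocyte and 3.70, 3.28, 2.76 and 3.52 in control samples (3.21-fold, adjusted p = 0.0035), and Spry2 was 2.13-fold lower on 1 of 2 probes. Dusp1 measured 3.62, 3.77, 4.03 and 3.81 against 5.38, 4.79, 4.58 and 4.67 (2.07-fold lower), Dusp5 was 2.39-fold lower, and Ptpn14 1.83-fold. Rasa4, which inactivates Ras (-0.03, -0.25, 0.07 and 0.14 against 1.97, 1.13, 1.19 and 0.99), and the kinase Mapk11 (1.84-fold) were lower. The higher phosphatase was Dusp3 (5.01, 5.21, 4.99 and 5.04 against 4.16, 4.38, 4.39 and 4.33), with narrow groups.

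Adcy6, an adenylyl cyclase, measured -0.92, -1.19, -0.88 and -1.15 against 0.38, 0.20, -0.03 and 0.34 (2.39-fold lower), and Gucy1b2, a subunit of soluble guanylyl cyclase, -1.40, -1.69, -1.54 and -1.45 against -4.16, -3.35, -3.30 and -3.26 (3.99-fold higher). Traf3, an adaptor of TNF receptors, was 1.61-fold higher on 1 of 2 probes, and Gpsm1, a regulator of G proteins, 1.73-fold lower. The mitophagy receptor Bnip3 measured 4.56, 6.28, 4.84 and 4.55 against 3.04, 2.72, 2.29 and 2.53 (5.32-fold higher), its highest value in Tsc2Δpodocyte replicate 2. Of 90 cyclins, CDKs and inhibitors 1 was higher and none lower, and that call did not hold with every array left out.

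Protein and RNA handling held 46 higher (3.35%) and 57 lower genes (4.15%) of 1372, the 46 becoming 29 without Tsc2Δpodocyte replicate 2 and the 57 becoming 27 with normexp. None of 83 cytosolic ribosomal proteins (log2 differences -0.23 to 0.55, median -0.02) and none of 78 mitochondrial ribosomal proteins (-0.43 to 0.54, median 0.05) was called by limma or by the methods' t-test. At an unadjusted p under 0.05 these were 4 and 15 genes. In the endoplasmic reticulum 7 of 72 folding and secretion genes were higher (9.72%, against 6.34% of all genes) and none lower. Ero1a, the oxidase that forms disulphide bonds, measured 3.88, 5.08, 4.19 and 4.04 against 2.89, 2.97, 3.02 and 2.99 (2.51-fold), and the collagen prolyl hydroxylases P4ha1 (2.01-fold) and P4ha2 (2.76-fold) were higher, all with replicate 2 highest. Of 101 respiratory chain genes 5 were higher (4.95%) and 1 lower (0.99%), both below the shares of all genes (6.34% and 3.86%). Yet 91 of the 101 log2 differences were above 0, with a median of 0.16 against -0.009 for all genes. With quantile normalization the median was 0.08 against -0.01. At an unadjusted p under 0.05 in limma these were 44 genes, against 8907 of all 26606 tested probes. Cox7a1 measured 0.79, 1.76, 0.81 and 0.73 against -1.21, -0.82, -0.69 and -0.84 (3.76-fold), and Ndufa4l2, with 3 control arrays above background, measured -0.18, 2.67, 0.10 and 0.07 against -4.69, -2.29, -2.91 and -2.42 (adjusted p = 0.0029), far highest in Tsc2Δpodocyte replicate 2. The ubiquitin ligases Trim58 and Trim29 were above background on no control array. Trim58 was at least 3.52-fold higher and Trim29 at least 2.53-fold, and the deubiquitinase Usp11 was 2.12-fold lower.

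Outside these classes, Chchd10, a protein of mitochondrial cristae, measured 7.04, 7.44, 6.93 and 6.86 in Tsc2Δpodocyte and 3.68, 4.17, 4.37 and 4.15 in control samples. Its log2 difference of 2.98 (standard error 0.19) had an adjusted p of 4.1e-06. Mgarp, a mitochondrial protein of steroid-making cells, measured -1.12, 1.06, -0.66 and -0.81 against -4.47, -4.13, -4.58 and -4.88 and Ppp1r3g, which promotes glycogen synthesis, -1.62, -0.18, -1.83 and -2.05 against -4.91, -4.87, -4.29 and -6.16, with 3 and 2 control arrays above background. Stac2 was 7.31-fold higher. Among lower genes, Hmga2, a chromatin protein of embryonic cells, measured 1.76, 0.56, 2.77 and 2.05 against 4.18, 4.55, 3.32 and 3.76 (4.49-fold), and the imprinted genes Dlk1 (3.91-fold) and Nnat (-1.96, -2.43, -2.35 and -2.22 against 0.13, -0.34, -0.25 and -0.01) were lower. The kinase Hunk (5.63-fold), Tmem178 (5.11-fold) and the splicing factor Rbfox1 (-2.34, -2.49, -3.47 and -2.77 against -1.39, -0.64, -0.97 and -0.58) were also lower. Hmga2, Dlk1 and Tmem178 lost their calls by the methods' t-test.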

How the data were processed

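Primary podocytes of untreated Tsc2Δpodocyte and Tsc2flox/flox mice (4 samples each of 16 in the series) were analysed on 1-colour Agilent mouse gene expression arrays. Per the labels and the submitters' processing notes, the authors scanned the arrays with Agilent Feature Extraction 10.7.3.1, and the deposited intensity of a spot is its background-subtracted, linear signal. The deposited table of normalized log2 values, which the authors scaled to the 75th percentile and centred on each probe's median by the values themselves, served as an alternative. The methods of the study used a fold threshold of 1.5 and a Benjamini-Hochberg p of 0.05 and name no test for the arrays. The 2-sided t-test of their general statistics, called the methods' t-test here, was an alternative.

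Here each intensity was divided by its array's 75th percentile and taken as log2, and the log2 values of repeated spots were averaged. Control spots and outlier spots were left out. Identifiers tied 32994 of 56605 probes to 22911 genes. A probe was tested if all 4 arrays of either group measured it well above background (26606 probes). A model of 4 group means over all 16 arrays was fitted in limma 3.58.1 (R 4.3.3), with Benjamini-Hochberg adjustment over all tested probes. The number of arrays limits the precision. The procedure was tested on simulated data.

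Genes were grouped into 106 lists by symbol. The comparison, the lists and the members were chosen with earlier results of these data known. Named genes were, for each list, up to 3 called genes in each direction by smallest p, the cell type markers, Tsc2, members of families of up to 12 genes, and the 20 largest fitted rises and falls outside the lists. Htra1, Slpi, Serpinb1b, Serpinb1c, Serpinb8, Serpinb9c, Serpinb9e, Serpinb9f, Serping1, Pon3, Ugt1a6b, Nqo1, Spry2, P4ha1, Ephx1, Aox1 and Jag1 were chosen after their values were seen. So were the uncalled Serpinb genes and VEGF-related genes and the printed promoters of Gsta3 and Mgst1. Some genes are not reported here. Alternatives were quantile normalization, median centring, normexp (offset 50) on median signals, leaving out the filter on dim probes or making it stricter, only the 8 arrays, the deposited values, the replicate number as a block, the methods' t-test with adjusted p, a prior that was robust and trended, any probe of a gene, other fold thresholds and each array left out.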

Additional observations from a re-analysis of the deposited data

Results flagged for a closer look

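In 23 of 422 groups of 4 arrays among the named genes, 1 array lay so far from the other 3 that its gap exceeded Dixon's 95% critical share of the group's range. Chance gives about 1 in 20 such groups, a share close to this one. All levels are log2 levels relative to the array's 75th percentile, and each gene named here stayed called without the array in question. 

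Tsc2Δpodocyte replicate 2 was the distant array in 9 of them: Clcf1 (0.93 against a group median of 1.45), Insl6 (1.73 against 1.41), Scg5 (-0.34 against -1.92), Pcdh19 (1.22 against 1.67), Ak4 (4.29 against 3.24), Bnip3 (6.28 against 4.70), Cox7a1 (1.76 against 0.80), Ndufa4l2 (2.67 against 0.08) and Stac2 (2.03 against 0.86). Tsc2Δpodocyte replicate 1 stood off for S1pr3 (-1.96 against -2.45) and Usp11 (-2.31 against -2.61). 

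Among the controls, Tsc2flox/flox replicate 1 stood off for Glis3 (1.65 against 1.34), P2rx4 (2.50 against 2.85), Mmp19 (-2.34 against -3.18) and Gucy1b2 (-4.16 against -3.32). Replicate 2 stood off for Zfp286 (-0.39 against -0.65), Cst6 (-0.41 against 0.22) and Adssl1 (1.16 against 1.54), replicate 3 for Hbegf (4.77 against 5.23) and Sox8 (-1.87 against -1.40), and replicate 4 for Bach2 (-2.31 against -2.60), Mcoln2 (-4.19 against -3.79) and Cadm1 (1.89 against 1.70).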

How the results depend on the processing

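The 876 higher and 534 lower genes depended on the thresholds and the test. Without a fold threshold there were 1470 and 1311, at a 2-fold threshold 432 and 221, and by the methods' t-test 563 higher. Of the genes in the lists (351 higher and 266 lower), 537 and 504 passed without a fold threshold, 199 and 117 at 2-fold, and 219 were higher by the methods' t-test. Leaving out 1 array gave 678 to 908 higher and 410 to 547 lower genes, fewest higher without Tsc2Δpodocyte replicate 2 and fewest lower without Tsc2flox/flox replicate 4. No direction turned in 3751 values of the named genes under alternatives, of which 37 lost the call: 27 by the methods' t-test, 8 with normexp and 2 with the replicate block. Normexp also moved the fold of 57 named genes by over 1.5 times, as it shrinks dim signals. With the replicate number as a block 862 genes were higher and 499 lower, and Ptn and Col1a1 lost the call. Same-numbered samples deviated with correlations of 0.00372, -0.223, -0.305 and -0.04, and differently numbered ones with -0.0849 to 0.254. These values showed no pairing by number, but they cannot exclude one. For 49 higher genes no control array, and for 5 lower genes no Tsc2Δpodocyte array, was above background, so only bounds of their folds were measured. The causes of these changes were not tested.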
